A study of Mus musculus with 15 samples.

Results

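Claudins are the membrane proteins that build the strands of tight junctions, the seals between neighbouring epithelial cells. Each family member sets a different property of the gap between cells: some line small pores for cations and water, and others tighten the seal. In the small intestine the pores let sodium return to the lumen, where it drives uptake of glucose, amino acids and phosphate, while the sealing claudins hold back bacteria and ions. The genes described here are the 10 claudins Cldn1, Cldn2, Cldn3, Cldn4, Cldn6, Cldn7, Cldn8, Cldn12, Cldn15 and Cldn23, found by their symbols among the 24594 rows of the table of mouse intestinal epithelium sorted directly from tissue.

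The study set fetal against adult mouse intestinal epithelium by RNA-seq, in 15 libraries of 5 groups, and 9 of those libraries came from cultured organoids whose table carries no gene identifiers and was not analysed here. The fetal group held 3 libraries from the proximal intestine of C57Bl/6J embryos at E16.5, and the adult group held 3 libraries from crypts of the proximal 20% of the small intestine of wild-type C57Bl/6J mice. Fetal cells were sorted as alive and positive for EpCAM, without the endothelial marker CD31 and the leukocyte marker CD45. Adult cells were sorted as alive, EpCAM positive, lineage negative and intermediate for CD24, after collagenase release of crypts. The labels give no genotype or library kit for the fetal group, and a SMARTer stranded total RNA pico-input kit for the adult group. Age therefore moved together with the crypt isolation and the CD24 gate, and these cannot be told apart. The labels do not say whether the libraries of a group came from separate animals or litters, so the p-values measure the spread between these samples only.

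Assigned counts per library lay between 5795518 and 10538004. Epithelial genes were high in all 6 libraries (the 8-gene list of gut epithelial markers summed to 5521 to 5564 CPM in fetal libraries and 7737 to 8190 CPM in adult libraries). CPM here is the count divided by the TMM-scaled library size and given per 1e6 counts. Adult libraries were also marked by 8 crypt and proliferation genes, which summed to 2114, 1720.2 and 1600.4 CPM in fetal libraries and 10256, 11006.5 and 12766 CPM in adult libraries. The 8 villus enterocyte genes ran the other way, with 5155, 6560.4 and 6699 CPM in fetal libraries against 2913, 2927 and 2264 CPM in adult libraries. Of the genes of each list, 8 of 8 crypt genes were lower in fetal libraries, and 6 of 8 villus genes were higher and 2 lower. Of all genes tested, 29% were higher and 25.9% lower in fetal libraries.

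The promoters of 2 claudin pairs are printed because the pairs carry the main contrasts below: Cldn3 and Cldn4 are neighbours on chromosome 5 that moved in opposite directions, and Cldn15 and Cldn2 are the pore-forming pair. Each sequence is the 250 bases before the RefSeq transcription start, 5′ to 3′ on the gene's own strand, from RefSeq tables on GRCm38.p6, the patch release of mm10. Capitals mark matches to the motifs searched, on either strand.
Cldn3: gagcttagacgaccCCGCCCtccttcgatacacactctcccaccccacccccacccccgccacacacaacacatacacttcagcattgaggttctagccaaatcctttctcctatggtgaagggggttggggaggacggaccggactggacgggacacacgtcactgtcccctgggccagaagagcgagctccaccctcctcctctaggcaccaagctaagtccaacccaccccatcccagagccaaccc
Cldn4: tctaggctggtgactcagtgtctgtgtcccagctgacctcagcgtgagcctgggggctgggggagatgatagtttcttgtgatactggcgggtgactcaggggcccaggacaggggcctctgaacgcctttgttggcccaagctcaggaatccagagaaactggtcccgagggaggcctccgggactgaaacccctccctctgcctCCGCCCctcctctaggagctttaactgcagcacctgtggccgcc
Cldn15: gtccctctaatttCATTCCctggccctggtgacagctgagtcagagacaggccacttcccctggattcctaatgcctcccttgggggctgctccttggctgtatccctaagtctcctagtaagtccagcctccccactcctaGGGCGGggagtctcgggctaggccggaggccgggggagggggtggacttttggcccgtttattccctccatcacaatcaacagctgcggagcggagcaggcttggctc
Cldn2: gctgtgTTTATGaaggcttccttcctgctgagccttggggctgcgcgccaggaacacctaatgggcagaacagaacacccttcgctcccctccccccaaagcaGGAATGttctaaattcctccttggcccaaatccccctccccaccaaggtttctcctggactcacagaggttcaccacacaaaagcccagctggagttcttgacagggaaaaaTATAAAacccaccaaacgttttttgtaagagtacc
The windows are chr5:134985964-134986213 on the plus strand for Cldn3, chr5:134946935-134947184 on the minus strand for Cldn4, chr5:136967619-136967868 on the plus strand for Cldn15 and chrX:139800558-139800807 on the plus strand for Cldn2. The motifs were the CDX letters TTTATG, the HNF1 half-site GTTAAT, the HNF4 letters CAAAGTC, the GATA letters AGATAA, the GRHL letters AACCGGTT, the TEAD letters CATTCC, the TATA box TATAAA and the SP1 letters GGGCGG. Among 32851 mouse promoter windows of the same length these letters occurred in 10.8%, 6.43%, 3.84%, 9.99%, 0.116%, 12.6%, 12.4% and 32.7%, in that order. The Cldn2 window held a CDX match 244 to 239 bases before the start, a TEAD match at 147 to 142 and a TATA box at 35 to 30. The Cldn15 window held a TEAD match at 237 to 232 and an SP1 match at 108 to 103, the Cldn4 window an SP1 match at 44 to 39, and the Cldn3 window an SP1 match at 236 to 231. None of these matches overlapped another. A match is a stretch of letters and was not tested as a binding site. RefSeq windows were found for 8 of the 10 genes.

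The fetal and adult claudin sets differed in which genes carried them. Cldn4, Cldn8, Cldn6, Cldn1 and Cldn23 were higher in fetal epithelium, and Cldn15, Cldn3 and Cldn2 were lower. Thus 8 of the 10 claudins passed an adjusted p of 0.05 in edgeR's quasi-likelihood test, against 54.9% of the 13314 genes tested. By direction, 5 of 10 were higher, against 29% of all genes, and 3 of 10 were lower, against 25.9%. The lowest and highest libraries of the groups did not overlap for 9 of the 10 claudins, against 62.3% of all genes. The median log2 fold change of the 10, fetal over adult, was 0.39, and that of all genes was 0.01. All 10 passed the filter on low counts, but Cldn1 and Cldn6 passed through their fetal counts, which fixes their direction among the 5 higher. Cldn8, with 17, 7 and 16 adult counts, also needed its fetal counts to pass. In bulk samples, fewer cells that express a gene and less of its RNA per cell cannot be told apart.

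**Figure D1:**
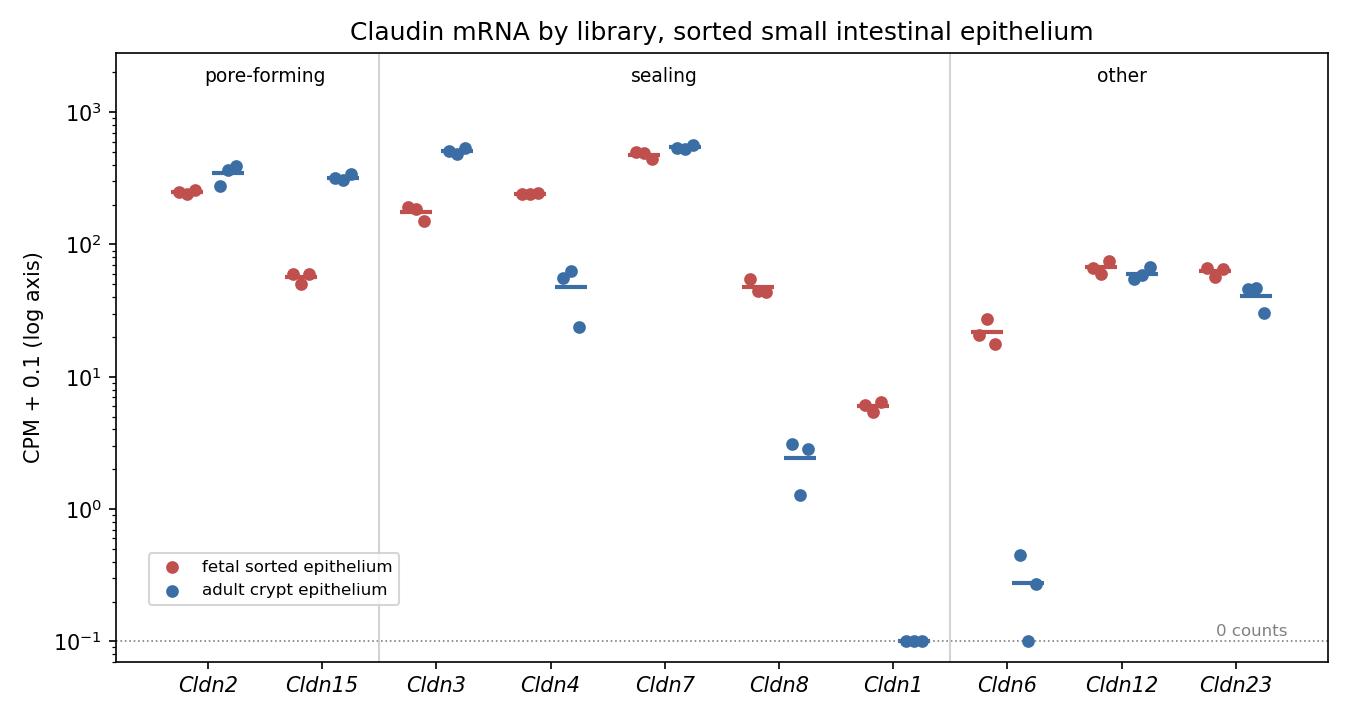
CPM of each claudin on a log axis in the 3 fetal and the 3 adult libraries; each point is a library and the bar is the group mean. The points of the groups overlap for Cldn12 only, and Cldn1 had 0 counts in the 3 adult libraries.

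The pore-forming claudins Cldn15 and Cldn2 were both lower in fetal epithelium. Both form paracellular channels for cations and water, and mice that lack both have too little sodium in the intestinal lumen and absorb nutrients poorly. Cldn15 (Entrez 60363, chromosome 5, 136967869 to 136975845) had 59.9, 50.5 and 59.5 CPM in fetal libraries, against 317, 305 and 338 CPM in adult libraries. Every fetal library was far below every adult library. The fetal level was 5.64-fold lower (log2 fold change -2.50 ± 0.09 SE, n = 3 each, edgeR adjusted p = 2.82e-10).

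Cldn2 (Entrez 12738, chromosome X, 139800808 to 139811386), which in the adult gut is known from crypts, had 251, 239.8 and 259.5 CPM in fetal libraries and 276, 367 and 393 CPM in adult libraries. The highest fetal library lay just under the lowest adult library, adult replicate 1. The log2 fold change was -0.47 ± 0.12 (SE, n = 3 each, edgeR adjusted p = 0.00387). Scaled to epithelial genes, an alternative that moves the median of all genes by 0.50, the Cldn2 log2 fold change was 0.042 (edgeR adjusted p = 0.751). Within each library the count of Cldn15 per count of Cldn2, which needs no scaling, was 0.238, 0.211 and 0.229 in fetal libraries and 1.15, 0.829 and 0.859 in adult libraries. The pore pair thus consisted mainly of Cldn2 in fetal counts and of similar counts of both genes in adult libraries. Cldn2 is X-linked, and the libraries also differed in sex-linked transcripts: Xist, the RNA of the inactive X, had 1110.5, 584 and 690 CPM in fetal libraries and 1527, 1191 and 1537 CPM in adult libraries. The Y-linked Ddx3y had 17.5, 37.8 and 33.5 CPM in fetal libraries and 0 counts in the adult libraries, and the part of sex in the Cldn2 difference was not tested.

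Of the 5 sealing claudins, Cldn4, Cldn8 and Cldn1 were higher in fetal epithelium and Cldn3 was lower. Cldn4 and Cldn3 are relatives known from tight epithelia and serve as receptors of Clostridium perfringens enterotoxin. Cldn3 (Entrez 12739, chromosome 5, 134986214 to 134987476) had 192, 187 and 150.1 CPM in fetal libraries and 510.2, 479 and 536 CPM in adult libraries. No fetal library came near an adult one, and fetal replicate 3 was the lowest. The fetal level was 2.89-fold lower (log2 fold change -1.53 ± 0.10 SE, n = 3 each, edgeR adjusted p = 5.27e-08). The Cldn3 gene overlaps the antisense gene Wbscr25 by 40 bases, and Wbscr25 itself averaged 18.8 CPM in fetal and 56.1 CPM in adult libraries. Whether the counting used strand is not given in the sources used here, so reads of that short overlap cannot be assigned to one gene.

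Cldn4 (Entrez 12740, chromosome 5, 134945123 to 134946934) had 239, 242 and 246 CPM in fetal libraries, against 55.9, 63.1 and 23.9 CPM in adult libraries. The fetal libraries lay close together, with a coefficient of variation of 1.43%, while the adult libraries varied by 43.9%, with adult replicate 3 the lowest. The fetal level was 5.09-fold higher (log2 fold change 2.35 ± 0.23 SE, n = 3 each, edgeR adjusted p = 2.14e-06). The genes lie 39279 bases apart, and Cldn4 had 1.25, 1.30 and 1.64 counts per Cldn3 count in fetal libraries but 0.109, 0.132 and 0.0445 in adult libraries. These ratios are not corrected for length, and every fetal ratio lay above every adult ratio. Adult replicate 3 also had the highest sum of crypt genes and the lowest sum of villus genes among the adult libraries, given above. Most of that crypt sum was Olfm4, with 6475, 7107 and 8870 CPM in adult libraries. Lgr5, Ascl2, Smoc2, Axin2 and Cd44 were also highest in adult replicate 3, and Mki67 and Top2a were not. The part of these differences in the spread of Cldn4 was not tested.

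Cldn8 (Entrez 54420, chromosome 16, 88560826 to 88563183), a sealing claudin known from the colon and the kidney's collecting duct, had 55.1, 44.3 and 43.3 CPM in fetal libraries and 3.01, 1.19 and 2.77 CPM in adult libraries. The lowest fetal library was many-fold above the highest adult library. The difference was 20.4-fold (log2 fold change 4.35 ± 0.23 SE, n = 3 each, edgeR adjusted p = 5.46e-09), on 1259 fetal and 40 adult counts. Cldn1 (Entrez 12737, chromosome 16, 26356645 to 26371839), which in mouse skin is needed for the water barrier, had 5.99, 5.36 and 6.37 CPM in fetal libraries and 0 counts in all 3 adult libraries. Set against a floor of 3 counts over the adult group, its 159 fetal counts were at least 34.4-fold higher (edgeR adjusted p = 2.92e-06). Counting intervals and floors here cover counting error only. Even in fetal epithelium Cldn1 was the lowest of the 10 claudins.

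Cldn7 (Entrez 53624, chromosome 11, 69964779 to 69967886) did not pass the test. It binds EpCAM at the lateral membrane, and mice without it lose the integrity of the intestinal lining. It had 498, 495 and 442 CPM in fetal libraries and 540.03, 523 and 567 CPM in adult libraries. The groups did not overlap, but the gap between them was small. The log2 fold change was -0.18 ± 0.08 (SE, n = 3 each, edgeR adjusted p = 0.0833), and it took the opposite sign, 0.32 (edgeR adjusted p = 0.0124), under scaling to epithelial genes. Per count of Epcam, Cldn7 had 0.580, 0.594 and 0.525 counts in fetal libraries and 0.553, 0.4955 and 0.529 in adult libraries. These ratios overlapped between the groups.

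Of the remaining members, Cldn6 and Cldn23 were higher in fetal epithelium and Cldn12 did not pass the test. Cldn6 (Entrez 54419, chromosome 17, 23679348 to 23682446), known from pluripotent cells and embryonic epithelia, had 20.7, 27.2 and 17.6 CPM in fetal libraries and 0.354, 0 and 0.173 CPM in adult libraries. The adult group held 3 counts in all, against 572 in the fetal group, a ratio of 124 with an exact 95% counting interval of 42.1 to 602 (edgeR adjusted p = 3.07e-08). The fitted log2 fold change of 6.84 became 7.73 without adult replicate 1 and 6.28 without adult replicate 2, so its size rests on single adult counts. Cldn9, whose gene lies 137 bases from the end of Cldn6, had 59 fetal and 2 adult counts, a ratio of 19.2 (exact 95% counting interval 5.07 to 162), and was under the filter for the test.

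Cldn23 (Entrez 71908, chromosome 8, 35824709 to 35826559), a less studied claudin of gut epithelium, had 66.0, 57.1 and 65.1 CPM in fetal libraries and 46.3, 46.7 and 30.1 CPM in adult libraries. As for Cldn4, adult replicate 3 was the lowest library. The fetal level was 1.53-fold higher (log2 fold change 0.61 ± 0.15 SE, n = 3 each, edgeR adjusted p = 0.00312). Cldn12 (Entrez 64945, chromosome 5, 5505015 to 5514976), an unusual claudin linked in mouse intestine to calcium passage, had 66.9, 60.1 and 75.5 CPM in fetal libraries and 54.4, 59.0 and 67.1 CPM in adult libraries. It was the member whose groups overlapped (log2 fold change 0.17 ± 0.11 SE, n = 3 each, edgeR adjusted p = 0.224). Scaled to epithelial genes its log2 fold change was 0.67 (edgeR adjusted p = 1.84e-04).

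To set the claudins against each other, CPM was divided by the length in kilobases of each gene's longest protein-coding transcript. In fetal epithelium Cldn7 led with 358 ± 23.9 CPM per kb (SD, n = 3), ahead of Cldn3 with 140 ± 18.004 and Cldn4 with 134 ± 1.90 CPM per kb, which did not differ beyond their spread. Cldn2 followed with 82.2 ± 3.25 CPM per kb. Then came Cldn23 with 33.9 ± 2.64 and Cldn15 with 29.8 ± 2.79 CPM per kb, a pair within its spread. Cldn8 had 20.2 ± 2.79 and Cldn12 17.98 ± 2.05 CPM per kb, also within their spread, followed by Cldn6 with 13.5 ± 3.01 and Cldn1 with 1.82 ± 0.157 CPM per kb. By CPM per kb, fetal epithelium thus had 3 abundant sealing claudins ahead of any pore-forming one. This order depended on the division by length. In CPM, fetal libraries averaged 478 ± 31.9 for Cldn7, 250 ± 9.89 for Cldn2, 243 ± 3.46 for Cldn4 and 176 ± 22.7 for Cldn3 (SD, n = 3). There Cldn2 stood level with Cldn4 and ahead of Cldn3.

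In adult crypt epithelium Cldn7 with 407 ± 16.54 and Cldn3 with 404 ± 22.9 CPM per kb stood level at the top. Cldn15 came next with 168 ± 8.88 CPM per kb and Cldn2 after it with 114 ± 20.2 CPM per kb. Without division by length, Cldn15 had 320 ± 16.9 and Cldn2 346 ± 61.4 CPM, within their spread. Cldn4 had 26.2 ± 11.5 and Cldn23 22.2 ± 5.13 CPM per kb, within their spread, followed by Cldn12 with 16.04 ± 1.70 CPM per kb. Cldn8 with 0.985 ± 0.419 and Cldn6 with 0.108 ± 0.109 CPM per kb were barely present, and Cldn1 was at 0. By rank of CPM per kb, Cldn4 was at place 3 in fetal and 5 in adult epithelium, and Cldn15 at place 6 in fetal and 3 in adult epithelium.

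As shares of the summed CPM per kb of the 10 claudins, Cldn15 and Cldn2 together made up 13.2%, 12.5% and 14.8% in fetal libraries and 22.6%, 24.9% and 25.5% in adult libraries. Every fetal library had a smaller pore-forming share than every adult library. The shares averaged 13.5% ± 1.16 in fetal and 24.3% ± 1.501 in adult libraries (SD, n = 3 each), and an exact permutation test of 3 against 3 libraries cannot give a 2-sided p below 0.10. Cldn15 moved within this share, with 3.59% ± 0.410 in fetal and 14.5% ± 0.295 in adult libraries (SD, n = 3 each), while Cldn2 had 9.91% ± 0.788 and 9.79% ± 1.58. The share of Cldn4 was 16.1% ± 0.985 in fetal and 2.29% ± 1.06 in adult libraries, and that of Cldn3 was 16.8% ± 1.45 in fetal and 34.9% ± 1.03 in adult libraries. Cldn7 was the largest single share in fetal libraries, with 43.1% ± 1.07 against 35.1% ± 0.409 in adult libraries. Its own CPM per kb, given above, was not higher in fetal libraries. The sum that the shares divide averaged 831 ± 38.2 CPM per kb in fetal and 1158 ± 41.9 in adult libraries (SD, n = 3 each).

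**Figure D2:**
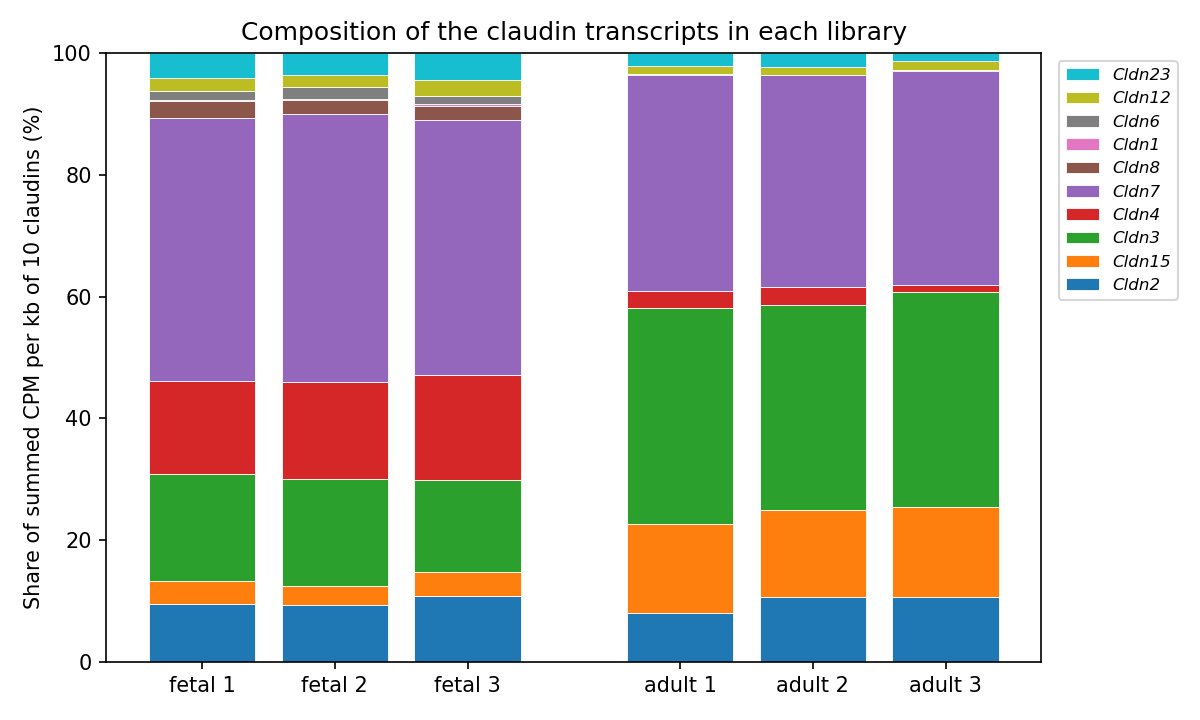
Share of each claudin in the summed CPM per kb of the 10 genes, as a stacked bar from 0 to 100% for each of the 3 fetal and 3 adult libraries. Cldn4 fills 16.1% of the fetal and 2.29% of the adult bars on average, and Cldn15 fills 3.59% of the fetal and 14.5% of the adult bars.

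Another 21 claudin genes had rows in the table, of which 10 had 0 counts in all 6 libraries and 3 passed the filter for testing. All 3 were higher in fetal libraries, but they passed the filter through their fetal counts, so the direction of this count was fixed by the filter. Cldn10, a claudin of kidney, pancreas and glands, had 14.6, 27.3 and 12.7 CPM in fetal libraries and 0 counts in adult libraries, at least 102-fold higher against the floor of 3 counts. Its highest library, fetal replicate 2, was also highest in the sum of 12 pancreatic acinar genes, which had 1702, 3572 and 1748 CPM in fetal libraries and 3.71, 5.26 and 4.67 CPM in adult libraries. Cldn18, known from stomach and lung, had 10.5, 6.49 and 66.6 CPM in fetal libraries and 0 counts in adult libraries, at least 183-fold higher. Fetal replicate 3 held 711 of its 847 fetal counts, and without that library Cldn18 was at least 49.01-fold higher. Fetal replicate 3 stood out in Cldn18 and also in 9 other stomach genes, whose sum was 27.8, 25.7 and 317 CPM in fetal libraries and 0.884, 1.19 and 1.04 CPM in adult libraries. The 10 claudins summed to 1455, 1409 and 1365 CPM in fetal libraries, below the acinar sum. Of them, only Cldn6 was also highest in fetal replicate 2. The part of pancreatic or gastric cells in the values of Cldn10, Cldn18 and the 10 claudins was not tested. Cldn19, a kidney and nerve claudin, had 52 fetal and 8 adult counts (log2 fold change 2.03 ± 0.52 SE, edgeR adjusted p = 0.00509). With 1 library left out, the log2 fold change of Cldn19 lay between 1.65 and 2.80, the latter without adult replicate 2. Without fetal replicate 1 or 3 the gene was under the filter.

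Markers of other cell types differed between the groups as well. In fetal libraries some of them reached the levels of the lower claudins, such as Cldn6 and Cldn1. The 12 mesenchymal genes summed to 219, 228 and 166 CPM in fetal libraries and 15.9, 11.2 and 7.26 CPM in adult libraries, with Sparc, Lum and Col6a1 at 0 counts in adult libraries. All 11 of these genes that were tested were higher in fetal libraries. However, 9 of them had 3 or fewer adult counts and passed the filter through their fetal counts, which fixes their direction. Pdgfrb, with 191 fetal and 16 adult counts, also needed its fetal counts to pass. Endothelial genes summed to 10.4, 4.12 and 4.12 CPM in fetal and 5.66, 7.80 and 5.53 CPM in adult libraries, with Cdh5, Kdr, Tie1 and Emcn at 0 in adult libraries. Esam, the 1 gene of this list that was tested, made up most of the adult sum, with 4.07, 5.94 and 4.67 CPM. It was lower in fetal libraries (log2 fold change -2.99 ± 0.38 SE, edgeR adjusted p = 2.265e-05). Esam passed the filter through its adult counts, which fixes its direction. Cdh5 and Eng ran the other way, with 35 and 46 fetal against 0 and 3 adult counts. The endothelial claudin Cldn5 had 3 fetal and 2 adult counts. The enteric neuron and glia genes summed to 48.0, 68.7 and 54.2 CPM in fetal and 5.83, 6.11 and 5.01 CPM in adult libraries, and red cell genes to 31.6, 55.6 and 40.4 CPM in fetal and 1.24, 0.509 and 1.38 CPM in adult libraries. Immune genes summed to 22.3, 21.5 and 21.1 CPM in fetal and 23.7, 20.5 and 21.6 CPM in adult libraries. Within that sum the 3 tested genes split: Itgam was lower (log2 fold change -1.84 ± 0.24 SE, edgeR adjusted p = 2.70e-05), Csf1r was higher (0.71 ± 0.18 SE, edgeR adjusted p = 0.00381) and Laptm5 was higher on 79 fetal and 3 adult counts. Of 7 mesothelial genes, 2 were tested: Krt19, which gut epithelium shares, was lower, and Upk3b was higher, with 34.2, 30.9 and 36.0 CPM in fetal libraries and 0.177, 0 and 0.173 CPM in adult libraries. Without Krt19 the mesothelial genes summed to 38.3, 35.7 and 42.7 CPM in fetal and 1.06, 1.19 and 0.519 CPM in adult libraries, with Msln at 66 fetal and 0 adult counts. Laptm5 and Upk3b passed the filter through their fetal counts, which fixes their direction. The part of these other cell types in the claudin differences was not tested.

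Claudins meet other proteins at the junction, and these were followed in fixed lists. Of 11 tested membrane partners of the tight junction, 6 were higher and 3 lower in fetal libraries (median log2 fold change 0.44). Over all 13314 genes tested, 29% were higher and 25.9% lower, with a median of 0.01. Scaling to epithelial genes called 8160 of them higher and 1210 lower. Cxadr, the adenovirus receptor of the junction, was higher (log2 fold change 0.83 ± 0.09 SE, edgeR adjusted p = 4.17e-06). Marveld2, the tricellulin that seals corners where several cells meet, was higher by 0.44 ± 0.10 (edgeR adjusted p = 0.00228). Lsr, which recruits tricellulin to those corners, was lower with -0.67 ± 0.08 (edgeR adjusted p = 1.16e-05), and its relative Ildr2 had 65 fetal counts and 1 adult count, a ratio of 42.2 (exact 95% counting interval 7.31 to 1692). The fitted log2 fold change of Ildr2, 4.99, was 7.19 without adult replicate 3, which held that count, and Ildr2 was under the filter when any fetal library was left out. Ildr2 passed the filter through its fetal counts, which fixes its direction among the 6. Jam3, another of the 6, had 73 fetal and 20 adult counts and also needed its fetal counts to pass. Marveld3, a relative of occludin, was lower with -0.85 ± 0.11 (edgeR adjusted p = 1.68e-05). Occludin itself (Ocln) just missed the threshold (log2 fold change 0.23 ± 0.09 SE, edgeR adjusted p = 0.0518), which it passed under 5 alternatives. These were RLE size factors (edgeR adjusted p = 0.0451), library size only (0.0285), leaving out Rn45s (0.0461) or adult replicate 3 (0.00602), and scaling to epithelial genes (2.13e-05). Under scaling to epithelial genes 8 of these partners were higher and 1, Marveld3, lower, and Lsr did not pass (log2 fold change -0.17).

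The plaque proteins that anchor claudins to actin also split. Of 16 tested, 10 were higher and 3 lower in fetal libraries (median log2 fold change 0.30). Of all genes, 29% were higher and 25.9% lower. Among the ZO scaffolds, Tjp1 (ZO-1) averaged 393 ± 19.9 CPM in fetal and 217 ± 17.0 CPM in adult libraries (SD, n = 3 each; log2 fold change 0.86 ± 0.09 SE, edgeR adjusted p = 2.74e-06). Tjp3 (ZO-3) averaged 119.9 ± 15.2 CPM in fetal and 314 ± 30.6 CPM in adult libraries (log2 fold change -1.39 ± 0.11 SE, edgeR adjusted p = 2.11e-07). Cingulin (Cgn) was higher by 0.78 ± 0.08 (edgeR adjusted p = 4.05e-06), and the scaffold Mpdz had 167 fetal and 3 adult counts, a ratio of 36.1 (exact 95% counting interval 12.2 to 177). The fitted log2 fold change of Mpdz, 5.04, was 5.91 without adult replicate 2. Its direction among the 10 was fixed by the filter, which it passed through its fetal counts. Under scaling to epithelial genes 14 plaque genes were higher and 1, Tjp3, lower.

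EpCAM, which holds Cldn7 and keeps it from degradation in mouse intestine, was also the sorting marker. Epcam was lower (log2 fold change -0.29 ± 0.08 SE, edgeR adjusted p = 0.00942), and its value turned to 0.21 under scaling to epithelial genes, of which it is one. St14, the protease matriptase that cuts EpCAM, was lower with -0.70 ± 0.08, and its partner protease Prss8 was higher by 0.70 ± 0.10. In all, 1 of the 5 genes of this group was higher and 3 were lower (median log2 fold change -0.24), against 29% and 25.9% of all genes. Scaling to epithelial genes gave 3 higher and 0 lower, and St14 did not pass (log2 fold change -0.19).

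Adherens junction and desmosome genes included 3 of 17 higher and 7 lower (median log2 fold change -0.05), against 12 higher and 3 lower under scaling to epithelial genes. For this list and the next, the shares over all genes were 29% higher and 25.9% lower. The desmosomal genes Dsp, Dsg2 and Pkp3 were lower by both scalings, with log2 fold changes of -0.99 ± 0.09, -0.77 ± 0.09 and -0.94 ± 0.10. E-cadherin (Cdh1) had -0.27 ± 0.09 (edgeR adjusted p = 0.02) and passed in the opposite direction, 0.24, under scaling to epithelial genes (edgeR adjusted p = 0.0464). Cdh1 missed the threshold without fetal replicate 1 or 2 (edgeR adjusted p = 0.0543 and 0.0596) and with library size only (0.0533). Leaving out either of these fetal libraries left 4 genes of this list lower. Nectin3, a cell adhesion protein of the adherens junction, was lower with -0.62 ± 0.08, but did not pass under scaling to epithelial genes (-0.12). Among 9 actomyosin regulators of junction tension, 2 were higher and 1 lower (median log2 fold change -0.07), against 8 higher and 0 lower under scaling to epithelial genes. The smooth muscle myosin light chain Myl9 had 87 fetal and 3 adult counts, a ratio of 18.8 (exact 95% counting interval 6.23 to 93.1). The fitted log2 fold change of Myl9, 4.14, was 5.03 without adult replicate 1. Myl9 too passed the filter through its fetal counts, which fixes its direction. The myosin heavy chain Myh9 was lower with -0.58 ± 0.09 (-0.081 under scaling to epithelial genes, not passed). The kinase gene Rock2 was higher by 0.23 ± 0.08 (edgeR adjusted p = 0.033), a call lost without fetal replicate 2 or 3 or adult replicate 1 or 3 (edgeR adjusted p of 0.0604 to 0.111), which left 1 of these genes higher.

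**Figure D3:**
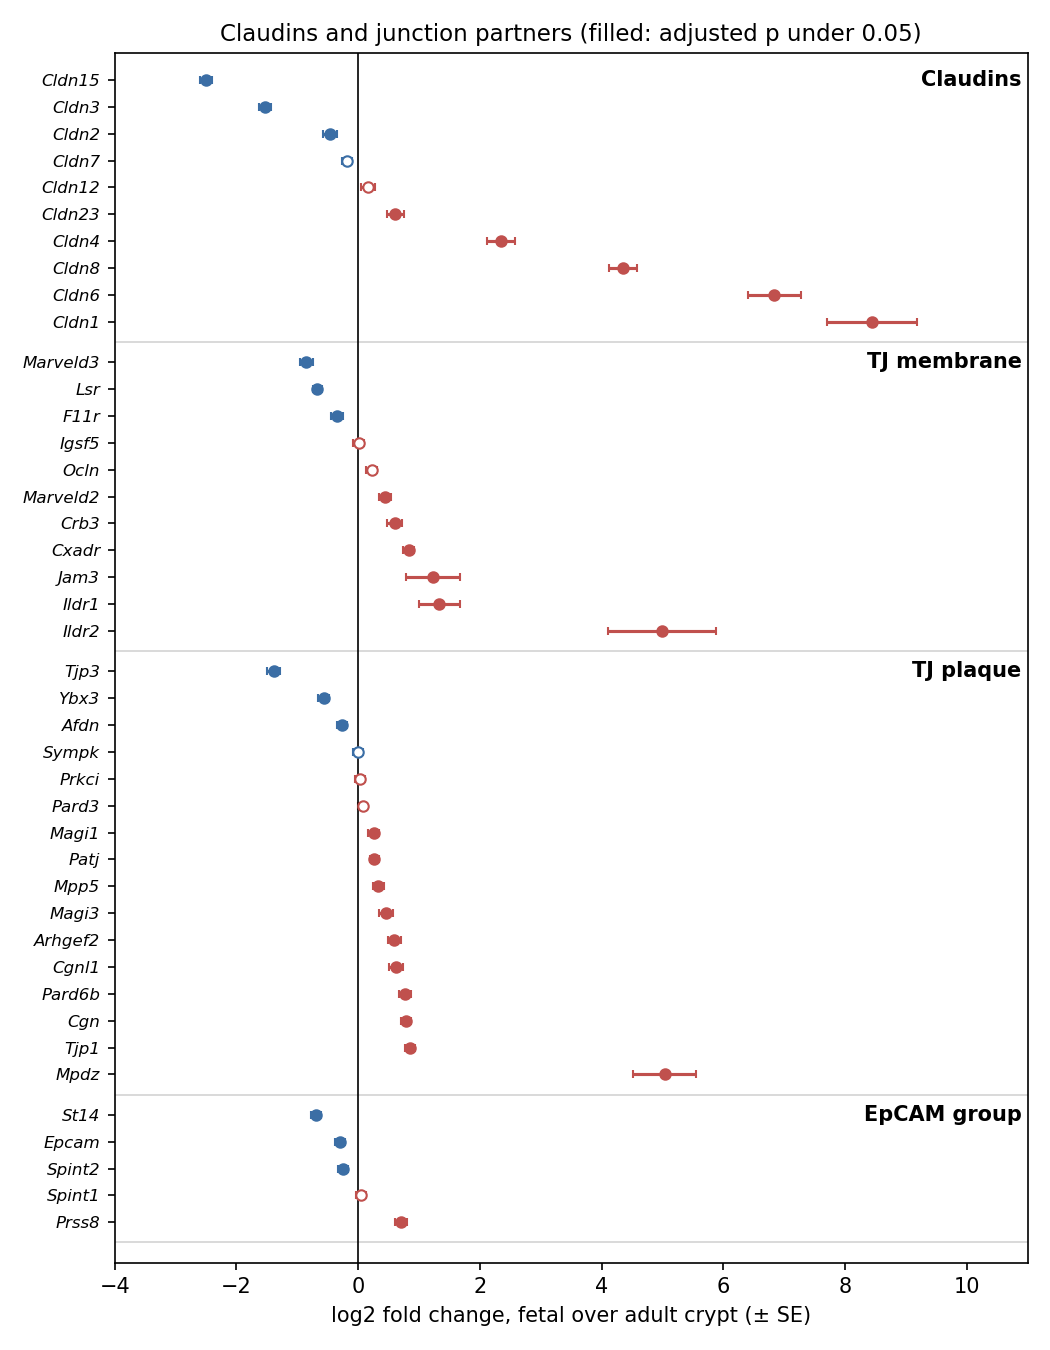
Log2 fold change, fetal over adult, with its SE for the claudins and the junction genes of the fixed lists, grouped by role. Cldn1 had 0 adult counts, so its fitted value depends on the prior count; Tjp1 and Tjp3 lie on opposite sides of 0.

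Of 10 tested regulators with claudin genes among their known targets, 3 were higher and 4 lower in fetal libraries (median log2 fold change -0.21). Of all genes, 29% were higher and 25.9% lower. Among the 3, Zeb1 (88 fetal and 4 adult counts) and Zeb2 passed the filter through their fetal counts, which fixes their direction. The vitamin D receptor Vdr, which in mouse intestine raises Cldn2 and Cldn12, had 17.3, 15.7 and 14.997 CPM in fetal libraries and 565, 465 and 711 CPM in adult libraries. Its log2 fold change was -5.18 ± 0.16 (SE, n = 3 each, edgeR adjusted p = 4.78e-11), a far wider gap than that of Cldn2 or Cldn12. Hnf4a, the hepatocyte nuclear factor of gut epithelium, was lower with -1.06 ± 0.09, and the caudal factors Cdx1 and Cdx2, which activate the claudin-2 promoter in reporter assays, had -0.76 ± 0.09 and -0.28 ± 0.08. Under scaling to epithelial genes Cdx2 turned to 0.22, which did not pass, and without fetal replicate 3 it missed the threshold (edgeR adjusted p = 0.0700). That scaling gave 5 regulators higher and 3 lower. Grhl2, an activator of Cldn4 in mouse kidney, had -0.10 ± 0.11 (edgeR adjusted p = 0.459), with 0.40 under scaling to epithelial genes. Zeb2, a repressor of junction genes that is also expressed in mesenchyme, had 138 fetal counts and 1 adult count, a ratio of 89.6 (exact 95% counting interval 15.8 to 3564). The fitted log2 fold change of Zeb2, 6.12, was 8.32 without adult replicate 1, which held that count.

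Sodium that leaks back through claudin pores feeds carriers on the lumen side, and the sodium pump keeps the gradient. Of a wider list of carrier and pump genes 7 were tested, with 3 higher and 4 lower in fetal libraries (median log2 fold change -0.35). Leaving out fetal replicate 3, adult replicate 1 or adult replicate 2 left 2 of them higher. Over all genes, 29% were higher and 25.9% lower. The phosphate carrier Slc34a2 had 99.5, 110.0 and 108 CPM in fetal libraries and 2.12, 2.71 and 1.90 CPM in adult libraries. Its log2 fold change was 5.55 ± 0.15 (SE, n = 3 each). The glucose carrier Slc5a1 (SGLT1) was lower with -1.18 ± 0.12, and the neutral amino acid carrier Slc6a19 was higher by 1.66 ± 0.18. The sodium pump subunit Atp1b1 was lower with -0.61 ± 0.09, which did not pass under scaling to epithelial genes (-0.11), and that scaling gave 3 of these genes higher and 1 lower.

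Genes whose pattern over the 6 libraries lay nearest to a claudin were found by the root mean square difference of log2(CPM + 0.5), centred per gene, among 9754 genes. These had a mean log2(CPM + 0.5) of at least 3, and claudins and genes with predicted or clone names were left out. For Cldn15 the nearest were Paqr4 with a difference of 0.0475, Zc3h12a with 0.0688 and Far2 with 0.0917 on the log2 scale. For Cldn2 they were Tmem131l with 0.0488, Fads2 with 0.0511 and Efna1 with 0.0526. For Cldn4 they were Sulf2 with 0.156, Pxdc1 with 0.160 and Myt1 with 0.190, and for Cldn6 they were Tceal8 with 0.260, Arid3a with 0.293 and Ppp1r3b with 0.306. The neighbours of Cldn4 were thus looser than those of Cldn15 and Cldn2. Cldn6 itself lay under the mean of 3, so its neighbours came only from genes with a higher mean. Its differences can therefore not be set against those of the others.

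**Figure D4:**
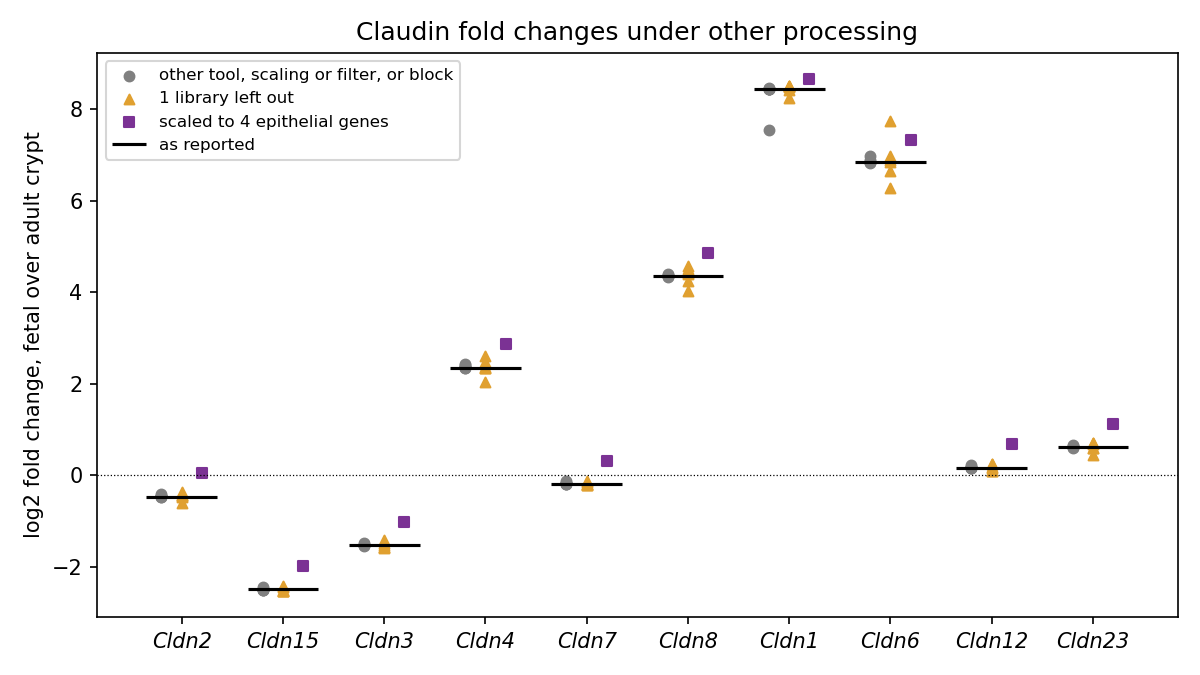
Log2 fold change, fetal over adult, of each claudin in the reported fit and under each of 14 alternatives of scaling, filtering, test and left-out library. Cldn2 and Cldn7 cross 0 only under scaling to epithelial genes, where they have 0.042 and 0.32.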

How the data were processed

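RNA-seq gene counts of 3 fetal and 3 adult libraries were analysed as the authors deposited them, unnormalized; the submitters' processing notes name mm10 and edgeR, and for aligner, counter and strand setting these notes were silent on the sorted libraries (not given in the sources used here). Rows without a gene symbol, 7 rows holding 0.00212 to 0.0042% of counts, were kept in the fit, and Rn45s took 7.32 to 10.7%. The claudins and all lists were chosen with earlier results of these data known. Counts were filtered by filterByExpr, scaled by TMM and tested over 13314 genes with edgeR 4.0.16 in R 4.3.3 (quasi-likelihood, Benjamini-Hochberg adjusted p under 0.05). SE is the absolute log2 fold change divided by the square root of F. Named genes were the 10 claudins, other claudins, 12 genes whatever their value, and the 3 nearest patterns of 4 claudins. Up to 4 called genes per junction list were also named, by smallest p. Wbscr25, Xist, Ddx3y, Krt8, Jam3 and marker genes of other cell types were added after their values were seen. Some genes of the junction lists are not reported here and were left out of the list counts. Lengths came from GENCODE M21. Replicates differed beyond counting noise (chi-square divided by its degrees of freedom was 4.83 or more) and counted separately. On simulated counts of 12163 genes with means from the adult libraries, 82.6% of 2-fold and 98.9% of 4-fold changes were recovered. There 4.02% of calls were false. The simulation held 92 genes changed 2-fold and 92 changed 4-fold, far fewer than the 7304 called in the data. Its share of false calls therefore does not carry over to the data. The 14 alternatives covered scaling, filters, Rn45s, a replicate block, left-out libraries and DESeq2 1.42.0. RefSeq promoter windows were searched for 8 motifs.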

Additional observations from a re-analysis of the deposited data

How the results depend on the processing

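Over the 14 alternatives the claudins kept direction and call, apart from 3 under scaling to the geometric mean of Epcam, Cdh1, Krt8 and Krt18, itself a choice that moves with Krt8: the log2 fold change of Cldn2 became 0.042 and that of Cldn7 0.32, and Cldn12 passed with 0.67. Relative to the shift of 0.50 in the median of all genes they were -0.46, -0.19 and 0.17. Taking off this shift undoes the scaling, so these values are no check of the reported ones. That scaling called 8160 genes higher and 1210 lower, against 3859 and 3445 as reported, and 7 claudins higher and 2 lower, against 5 and 3. It also turned Epcam to 0.21, Cdh1 to 0.24, Cdx2 to 0.22 and Grhl2 to 0.40. Without filtering, the median of all genes moved by 0.13. With no division by length, the pore-forming share was 21.8% in fetal and 35.6% in adult libraries. Leaving out 1 library gave 6397 to 7261 called genes with 8 claudins among them, and pore-forming shares of 12.9 to 13.99% in fetal and 23.7 to 25.2% in adult libraries. Same-numbered libraries did not deviate together (correlations -0.063, -0.035 and -0.087), and a replicate block gave 6886 called genes and 8 called claudins and ended the call of Rock2 (edgeR adjusted p = 0.0597). Depth limits Cldn1 and Cldn6, which have 0 and 3 adult counts.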
